A study of Homo sapiens with 8 samples.

Results

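The genes of AMP-activated protein kinase (AMPK) and of kinases close to it were followed in HT1080, a human fibrosarcoma cell line. They are 10 of the 19775 genes that the array annotation names with a probe set of their own: the catalytic subunits PRKAA1 and PRKAA2, the scaffold subunits PRKAB1 and PRKAB2, the nucleotide-binding subunits PRKAG1 and PRKAG2, the upstream kinases STK11 (LKB1) and CAMKK2, and the AMPK-related kinases SIK1 and NUAK1. Every probe set that the annotation maps to these symbols was taken, 31 in all, and no probe set was shared with another gene.

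AMPK is a heterotrimer of a catalytic α, a scaffold β and a regulatory γ subunit. The γ subunit binds AMP, ADP or ATP, and phosphorylation of the α subunit by LKB1 or CAMKK2 activates the kinase when cellular energy runs low. Active AMPK turns down lipid and protein synthesis and turns up glucose uptake and fatty acid oxidation. SIK1 and NUAK1 have a catalytic domain related to that of AMPK and are also phosphorylated by LKB1, and SIK1 acts on the CRTC coactivators of the transcription factor CREB, which in turn acts on the SIK1 gene.

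The arrays were Affymetrix U133 Plus 2.0 chips, which read each transcript with 1 or more probe sets of short oligonucleotides, and there was 1 array for each of 8 conditions. On 4 arrays the cells had been held in 2-deoxy-D-glucose (2DG, 10 mM), a glucose analogue that blocks glycolysis: with 10 µM compound C, with 10 µM versipelostatin, with 100 µM phenformin, and alone. On the other 4, without 2DG (normal growth), they had received compound C, versipelostatin or phenformin at those doses, or nothing (control). Treatment lasted 18 h. Compound C is a kinase inhibitor widely used against AMPK, phenformin is a biguanide that blocks mitochondrial respiration and activates AMPK, and versipelostatin is a macrocyclic microbial product. All cells were of 1 line and all were grown with glucose and serum. As each condition has 1 array, no difference given here has a replicate check, an error or a p-value. The arrays read mRNA and say nothing of the phosphorylation or activity of the kinases. Less RNA in each cell and fewer cells making it cannot be told apart.

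Values are log2 signals, differences are log2 values on the treated array minus those on its comparison array, and 1 on that scale is 2-fold. Kept probe sets were those that reached 6 on any array, which left 15503 probe sets naming 8429 genes. Signals below their own array's median (3.12 to 3.28 over the arrays) were taken as not above background. Of the sarcoma cell's mesenchymal markers, 5 of 6 were kept, with vimentin (VIM) between 13.24 and 13.65, while THY1 was at 3.40 to 4.11 and no measured epithelial, leukocyte or endothelial marker was kept. CDH1, EPCAM, PTPRC and CDH5 were not above background on any array, PECAM1 (endothelial) was above it on all 8 at 4.12 to 4.41, and CD3D (leukocyte) on 2.

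Arrays with 2DG and a compound stood apart from the others. Over all kept genes the median difference from 2DG alone was −0.23 under compound C, −0.18 under versipelostatin and −0.26 under phenformin, while the 4 comparisons with the control had medians between −0.03 and 0.04. The poly-A control transcripts, which are spiked into RNA before labelling, were higher than in 2DG alone by a median of 0.80 under compound C, 0.47 under versipelostatin and 0.31 under phenformin. The hybridization controls, which are added after labelling, were also higher than in 2DG alone, by medians of 0.51, 0.33 and 0.35. The part of either set of controls in the results was not tested. Scaled on the poly-A transcripts, every difference from 2DG alone would be lower by 0.81 under compound C, 0.47 under versipelostatin and 0.30 under phenformin.

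SIK1 had the widest range of the members. This kinase phosphorylates the CRTC coactivators and class IIa histone deacetylases and keeps them in the cytoplasm. On its brighter probe set (208078_s_at) it read 9.04 in 2DG plus compound C, 9.02 in 2DG plus versipelostatin, 8.59 in 2DG plus phenformin and 5.05 in 2DG alone, and in normal growth 5.35 with compound C, 5.81 with versipelostatin, 4.76 with phenformin and 4.16 in the control. The 3 arrays with 2DG and a compound were high and the other 5 all lay below them, with the control the lowest.

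Against 2DG alone, SIK1 was higher by 3.99 under compound C, 3.97 under versipelostatin and 3.54 under phenformin, or 15.9-fold, 15.7-fold and 11.6-fold. Counted from the highest difference among the 8429 kept genes, it stood at place 25 under compound C, 5 under versipelostatin and 13 under phenformin. SIK1 was kept only through the 3 arrays with 2DG and a compound, so these places are descriptions. In normal growth the same compounds gave 1.19 under compound C, 1.64 under versipelostatin and 0.60 under phenformin over the control, and 2DG alone gave 0.89. The effect in 2DG exceeded that in normal growth by 2.80 for compound C, 2.33 for versipelostatin and 2.94 for phenformin. All 3 comparisons in 2DG share the 2DG array, and those of 2DG alone and of the 3 compounds in normal growth share the control array, so they are not independent of each other.

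A second SIK1 probe set (232470_at) never reached 6. It read 5.04 in 2DG plus compound C, 5.34 in 2DG plus versipelostatin, 5.48 in 2DG plus phenformin and 4.27 in 2DG alone, so its differences of 0.76, 1.07 and 1.21 ran the same way at a smaller size. In normal growth it was slightly below the control, at −0.36 under compound C, −0.12 under versipelostatin and −0.38 under phenformin, where the brighter probe set was above it. Over the 8 arrays both probe sets had r = 0.88, a description of 8 points that share conditions. RefSeq lists a near-identical copy of SIK1, named SIK1B, on the same chromosome, and the array signal cannot be split between them.

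The promoter of SIK1 is printed because it is the member with the largest difference and its gene is a known target of CREB. The window runs 250 bases before to 50 after the transcription start in RefSeq's GRCh38.p14 annotation, on the minus strand at chr21:43427082-43427381. Capitals mark TGACG or its reverse complement CGTCA, the shorter form of the cAMP response element to which CREB binds.
SIK1 promoter: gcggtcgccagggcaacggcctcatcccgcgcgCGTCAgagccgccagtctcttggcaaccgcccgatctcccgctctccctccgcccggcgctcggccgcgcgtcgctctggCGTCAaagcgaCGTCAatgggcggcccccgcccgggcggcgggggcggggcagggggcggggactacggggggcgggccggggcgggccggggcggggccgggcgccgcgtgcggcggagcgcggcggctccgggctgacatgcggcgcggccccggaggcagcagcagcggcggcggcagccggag
There were 3 such matches, with first bases at −217, −137 and −126 from the start, and no match to the full palindrome TGACGTCA. TGACG on either strand occurred in 24.6% of 35116 RefSeq promoter windows of this length, and the palindrome in 1.85%. All 10 members had a window, and 4 of them had TGACG in at least 1: SIK1, STK11, PRKAG1 and PRKAG2. Of 7 listed CREB target genes with a window, 5 had it in at least 1. Some genes, such as PRKAG2 and CREM, had several windows, so these counts by gene cannot be set against the 24.6% of windows. A match only says that these letters are present.

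**Figure D1:**
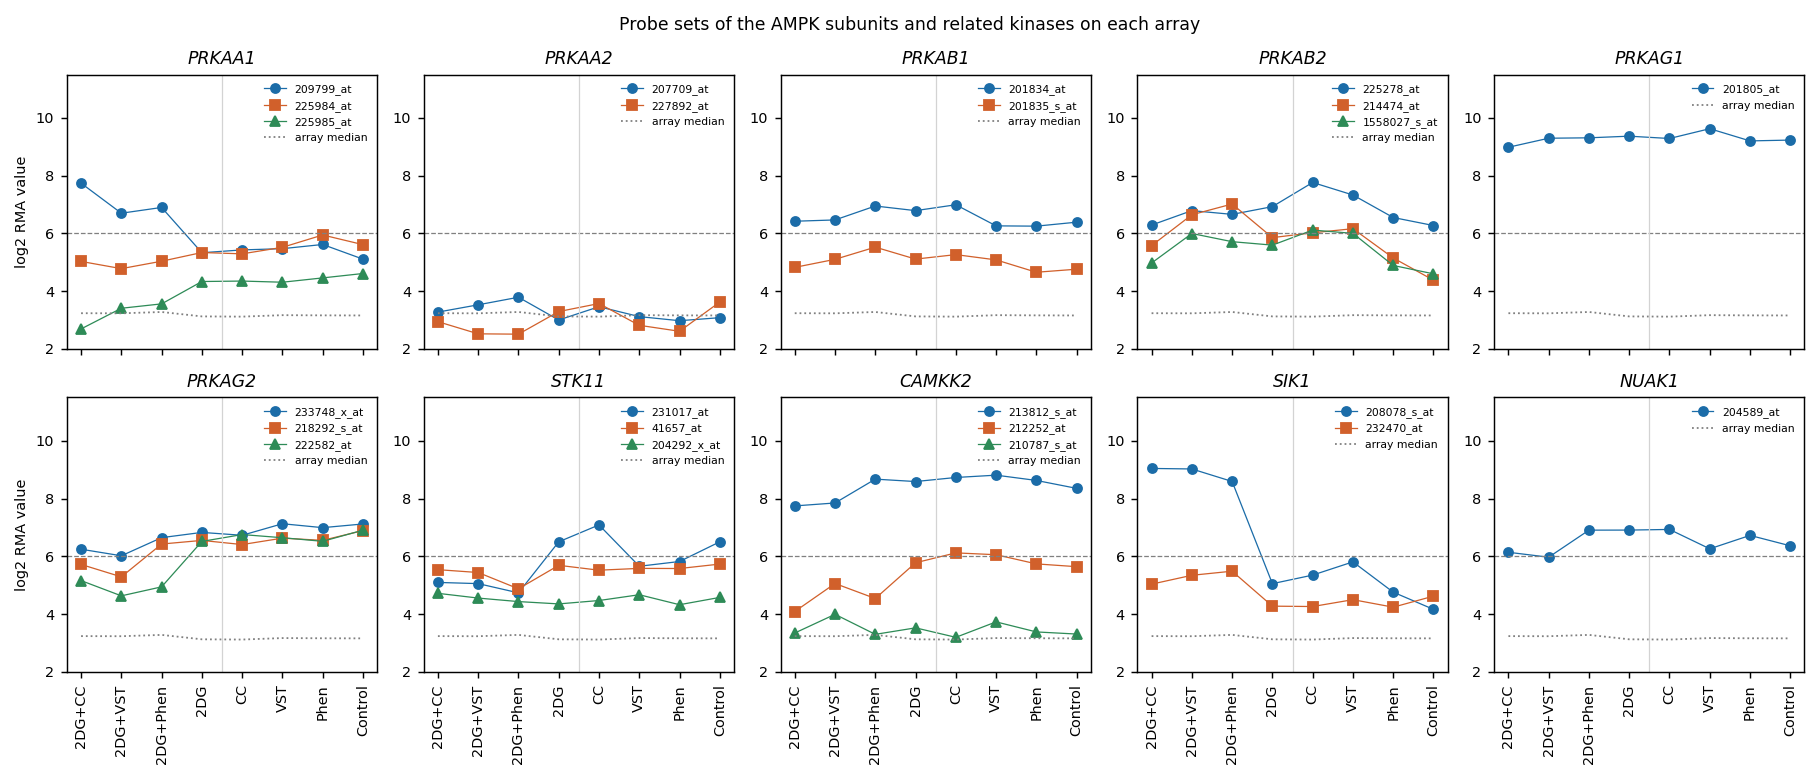
Log2 signal (vertical axis) of the 10 members on the 8 arrays (horizontal axis), up to 3 probe sets above background for each gene. CC is compound C, VST versipelostatin and Phen phenformin, the dashed line is the limit of 6, the dotted grey line is the median of each array, and the lines only join points. SIK1 reaches 8.59 to 9.04 on the 3 arrays with 2DG and a compound and stays at 5.81 or lower elsewhere, whereas PRKAG1 stays between 8.98 and 9.62.

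PRKAA1, which encodes the α1 catalytic subunit, differed between its own probe sets. The brightest (209799_at) read 7.74 in 2DG plus compound C, 6.70 in 2DG plus versipelostatin, 6.90 in 2DG plus phenformin and 5.33 in 2DG alone, and in normal growth 5.43 with compound C, 5.47 with versipelostatin, 5.62 with phenformin and 5.11 in the control. As for SIK1, the 3 arrays with 2DG and a compound were above the other 5. The differences from 2DG alone were 2.41 under compound C, 1.37 under versipelostatin and 1.57 under phenformin, or 5.31-fold, 2.58-fold and 2.96-fold. They stood at places 106, 162 and 174 of all kept genes. This probe set was kept only through the 3 arrays with 2DG and a compound, so these places are descriptions. Compound C in 2DG gave 1.04 more than versipelostatin in 2DG and 0.84 more than phenformin in 2DG. In normal growth all 3 compounds stayed within 0.51 of the control. After scaling on the poly-A transcripts the difference for versipelostatin was 0.90, under 2-fold.

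The other PRKAA1 probe sets ran the opposite way. On 225984_at the level was 5.03 in 2DG plus compound C, 4.78 in 2DG plus versipelostatin, 5.04 in 2DG plus phenformin and 5.34 in 2DG alone, differences of −0.31, −0.56 and −0.30. On 225985_at the signal was not above background in 2DG plus compound C (a difference of −1.10 or lower), and it differed by −0.93 with versipelostatin and −0.77 with phenformin. The remaining probe sets of the gene, 2 in number, were not above background on any array. The correlation of 209799_at with 225984_at over the 8 arrays was −0.70. No direction is therefore given for PRKAA1 as a gene, only for its probe sets.

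Disagreement of this kind was more frequent on the arrays with 2DG and a compound than on the rest. Among 3492 genes with at least 2 kept probe sets, the gap between the highest and lowest difference was 2-fold or more in 28.8% under compound C, 26.4% under versipelostatin and 30.3% under phenformin against 2DG alone. In 2DG alone and in the compounds without 2DG, each against the control, that share was between 6.84% and 8.59%. Differences past 2-fold were themselves more frequent in the first 3 comparisons. They held 34.0%, 25.3% and 27.5% of kept probe sets, against 5.72% to 7.17% in the others. Probe sets of 1 gene lay past 2-fold in both directions in 62 genes with compound C in 2DG, 118 with versipelostatin in 2DG and 125 with phenformin in 2DG, against 1 with 2DG alone, 7 with compound C alone, 5 with versipelostatin alone and 3 with phenformin alone. What the probe sets of a gene each read along its transcripts was not tested.

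PRKAA2, the α2 catalytic subunit that prevails in muscle, was at background. None of its 5 probe sets reached 6 and 3 of them were not above background on any array. The highest value of the gene was 3.79, on 207709_at in 2DG plus phenformin, and that probe set was above background on 4 of the 8 arrays. No difference is read from it.

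The scaffold subunits behaved unlike each other. PRKAB2, the β2 subunit, read 6.29 in 2DG plus compound C, 6.79 in 2DG plus versipelostatin, 6.66 in 2DG plus phenformin and 6.93 in 2DG alone on its brightest probe set (225278_at), and in normal growth 7.76 with compound C, 7.33 with versipelostatin, 6.55 with phenformin and 6.27 in the control. The arrays with compound C or versipelostatin alone were the highest, and the control and 2DG plus compound C the lowest. Over the control, PRKAB2 was 1.49 higher with compound C (2.81-fold) and 1.06 higher with versipelostatin (2.08-fold), while 2DG alone gave 0.65 and phenformin 0.28. For 2DG alone the other kept probe sets gave 1.47 on 214474_at, past 2-fold, and 0.99 on 1558027_s_at, and for phenformin 0.77 and 0.29.

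With 2DG the order turned for compound C: PRKAB2 in 2DG plus compound C was lower than in 2DG alone, by a difference of −0.64, and lower than in compound C without 2DG, by −1.47. The effect of a compound in 2DG minus its effect in normal growth was −2.13 for compound C and −1.20 for versipelostatin. The other kept probe sets of the gene also had compound C and versipelostatin above the control in normal growth, by 1.64 and 1.78 on 214474_at and by 1.51 and 1.40 on 1558027_s_at. With compound C in 2DG they were also below 2DG alone, at −0.28 on 214474_at and −0.62 on 1558027_s_at. With versipelostatin and phenformin in 2DG the probe sets parted. There 214474_at gave 0.79 and 1.16, 1558027_s_at gave 0.40 and 0.12, and 225278_at gave −0.14 and −0.27.

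PRKAB1, the β1 subunit, lay between 6.25 and 6.99 on 201834_at over the 8 arrays, and its second probe set followed it with r = 0.80 (n = 8 arrays). Its differences from 2DG alone were −0.37 under compound C, −0.32 under versipelostatin and 0.16 under phenformin, and its largest difference from the control was 0.60, with compound C. None of these reached 2-fold.

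Of the nucleotide-binding subunits, PRKAG1 (γ1) was nearly level. It read 8.98 in 2DG plus compound C, 9.29 in 2DG plus versipelostatin, 9.31 in 2DG plus phenformin and 9.37 in 2DG alone, and in normal growth 9.29 with compound C, 9.62 with versipelostatin, 9.20 with phenformin and 9.23 in the control. Its largest difference was 0.39, with versipelostatin against the control.

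PRKAG2 (γ2) was lower with compound C and with versipelostatin in 2DG on all 3 of its kept probe sets, and with phenformin clearly on 1. Its dimmest kept probe set (222582_at) read 5.16 in 2DG plus compound C, 4.63 in 2DG plus versipelostatin, 4.94 in 2DG plus phenformin and 6.52 in 2DG alone, against 6.52 to 6.90 on the 4 arrays in normal growth. On this probe set all 3 compounds in 2DG were past 2-fold lower, at −1.36 under compound C, −1.89 under versipelostatin and −1.57 under phenformin. On the brightest probe set (233748_x_at) the same differences were −0.58, −0.81 and −0.18, and on 218292_s_at −0.83, −1.26 and −0.13. With phenformin, −0.18 and −0.13 were smaller in size than the median of all kept genes, −0.26. The brightest probe set gave 0.10 there after centring and 0.16 after quantile normalization. The 3 kept probe sets had r between 0.82 and 0.97 over the 8 arrays, and sizes that differed most with phenformin.

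STK11, the tumour suppressor kinase LKB1 that phosphorylates AMPK and its relatives, was past 2-fold lower in 2DG with a compound on 1 probe set of 3. On 231017_at it read 5.09 in 2DG plus compound C, 5.05 in 2DG plus versipelostatin, 4.73 in 2DG plus phenformin and 6.50 in 2DG alone, and in normal growth 7.09 with compound C, 5.65 with versipelostatin, 5.82 with phenformin and 6.50 in the control. The 3 arrays with 2DG and a compound were the lowest and compound C alone was the highest. Differences from 2DG alone were −1.41, −1.45 and −1.77 with compound C, versipelostatin and phenformin. Counted from the lowest difference among the 8429 kept genes, they stood at places 1474, 936 and 662. As STK11 was kept only through 2DG alone, compound C alone and the control, these places are descriptions. The brighter of its other probe sets (41657_at) gave −0.15, −0.25 and −0.81, and 204292_x_at gave 0.37, 0.20 and 0.08. For compound C in normal growth these gave −0.21 on 41657_at and −0.11 on 204292_x_at, where 231017_at gave 0.59. Over 8 arrays, 231017_at had r = 0.64 with 41657_at and r = −0.29 with 204292_x_at.

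CAMKK2, the calcium-dependent kinase upstream of AMPK, read 7.74 in 2DG plus compound C, 7.85 in 2DG plus versipelostatin, 8.67 in 2DG plus phenformin and 8.59 in 2DG alone on 213812_s_at, and in normal growth 8.73 with compound C, 8.81 with versipelostatin, 8.63 with phenformin and 8.35 in the control. Only compound C and versipelostatin in 2DG were below the control. Against 2DG alone they were lower, at −0.84 and −0.74, and phenformin differed by 0.08. A dimmer kept probe set (212252_at) gave −1.69 under compound C, −0.72 under versipelostatin and −1.24 under phenformin, so that phenformin differed between the probe sets. Another, 210787_s_at, was above background on all arrays but not kept, and gave −0.18, 0.47 and −0.22.

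NUAK1, an AMPK-related kinase with roles in cell adhesion and proliferation, had 1 probe set. It read 6.14 in 2DG plus compound C, 5.97 in 2DG plus versipelostatin, 6.91 in 2DG plus phenformin and 6.91 in 2DG alone, and in normal growth 6.93 with compound C, 6.26 with versipelostatin, 6.72 with phenformin and 6.36 in the control. In 2DG, compound C and versipelostatin were lower, at −0.77 and −0.94, as in CAMKK2, and phenformin was level. The 25th percentile of all kept genes was −1.02 under compound C and −0.81 under versipelostatin. Of NUAK1 and CAMKK2 on its brightest probe set, only NUAK1 with versipelostatin lay below that percentile. All differences of NUAK1 were under 2-fold.

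Of the 10 members, 9 had a kept probe set, and PRKAA2 did not. SIK1 and PRKAA1 reached the limit of 6 only on the 3 arrays with 2DG and a compound, and STK11 reached it in 2DG alone, compound C alone and the control, so that their being kept is tied to high values there. In 2DG, compound C left 2 members at least 2-fold higher, SIK1 and PRKAA1 on their brightest probe sets (8.33% of all kept genes were). It left 1 at least 2-fold lower, STK11 on 231017_at only (25.4% were). With versipelostatin and with phenformin the same genes made up the same counts, where 4.09% and 4.84% of kept genes were higher and 20.0% and 21.8% lower. On the brightest probe sets, no member was past 2-fold in 2DG alone (3.06% higher and 1.90% lower of all kept genes) or with phenformin alone (2.66% and 2.17%). Compound C alone and versipelostatin alone each had PRKAB2 and SIK1 past 2-fold higher (3.88% and 2.46% of kept genes) and none lower (2.70% and 2.48%).

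The median over the 9 kept members was −0.58 under compound C, −0.32 under versipelostatin and −0.00 under phenformin in 2DG, beside −0.23, −0.18 and −0.26 over all kept genes. In normal growth the members' median was 0.57 under compound C, 0.36 under versipelostatin and 0.27 under phenformin, and 0.24 with 2DG alone, where all kept genes were near 0. These medians share the control array, so they are not independent of each other. That array was the lowest for SIK1, PRKAA1 and PRKAB2 on their brightest probe sets. The members were also set against the same compound without 2DG. On its brightest probe set SIK1 was higher by 3.69 under compound C, 3.22 under versipelostatin and 3.83 under phenformin. PRKAA1 was higher by 2.31, 1.23 and 1.28 on 209799_at only. It went the opposite way on 225984_at, at −0.26, −0.74 and −0.91. On 225985_at it gave −1.66, −0.90 and −0.90, the first from a value not above background. No direction is therefore given for PRKAA1 as a gene here either. On 231017_at STK11 was then lower, at −1.99 with compound C and −1.09 with phenformin but −0.60 with versipelostatin. Versipelostatin alone was already below the control on that probe set. With compound C, versipelostatin and phenformin, 41657_at gave 0.02, −0.14 and −0.70, and 204292_x_at gave 0.25, −0.12 and 0.11.

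**Figure D2:**
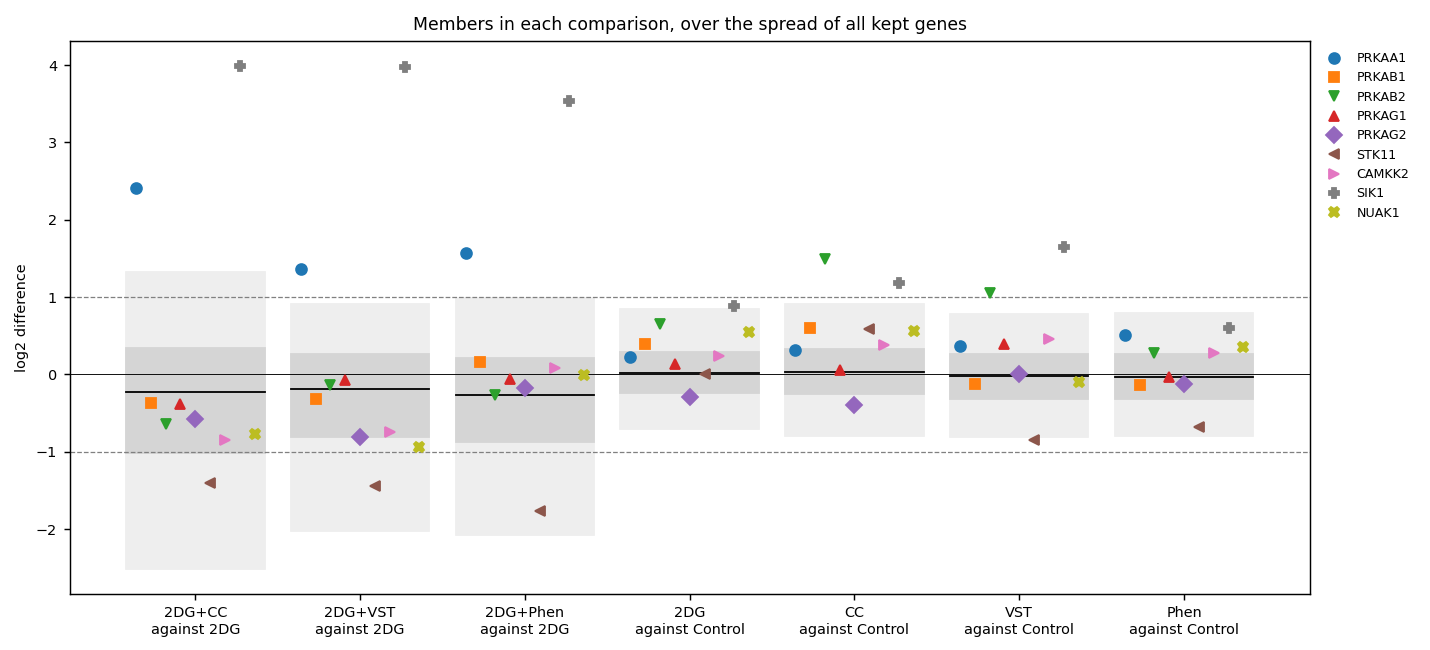
Log2 differences (vertical axis) of the 9 kept members, each on its brightest probe set, in the 7 comparisons (horizontal axis). Light boxes span the 5th to 95th and darker boxes the 25th to 75th percentile of the 8429 kept genes, the black line is their median and the dashed lines are 2-fold. SIK1 (3.54 to 3.99) and PRKAA1 (1.37 to 2.41) lie above the light box in the 3 comparisons in 2DG, and PRKAB2 lies above it with compound C and versipelostatin alone.

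Of the genes that assemble with LKB1 or AMPK or act upstream of them, 5 of 7 listed were kept. Compound C in 2DG had 1 of these higher and 1 lower by 2-fold (8.33% and 25.4% of all kept genes), and versipelostatin and phenformin in 2DG none, with medians of 0.18, 0.04 and −0.35. MAP3K7 (TAK1), which can phosphorylate AMPK, differed by 1.06 under compound C, −0.94 under versipelostatin and −0.72 under phenformin. Of its other kept probe sets, 2 had those directions and 1 gave 0.03, 0.39 and 0.14. STRADA, the pseudokinase that holds LKB1 in its active form, was lower with compound C, at −1.11, and within 0.20 of 2DG alone with the others. CAB39 (MO25), the third protein of that complex, differed by 0.21, −0.28 and −0.70.

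Among the other AMPK-related kinases, 6 of 11 listed were kept, and NUAK2 was not analysed here. Lower by 2-fold in 2DG were 3 under compound C, 2 under versipelostatin and 1 under phenformin, higher were 1, 0 and 0, and the medians were −1.07, −0.63 and −0.31. Over all kept genes 25.4%, 20.0% and 21.8% were lower and 8.33%, 4.09% and 4.84% higher. SNRK differed by −2.34, −2.04 and −1.52. MARK3, a kinase of microtubule-associated proteins, was 1.44 higher with compound C and lower with versipelostatin (−1.23) and phenformin (−0.86), and its second kept probe set gave 1.69, −2.07 and −1.15. MELK, a kinase of dividing cells, differed by −1.42 under compound C, 0.26 under versipelostatin and 0.18 under phenformin. SIK2, which shares the CRTC coactivators with SIK1, differed by −1.33 under compound C, −0.07 under versipelostatin and 0.44 under phenformin. In normal growth the list had medians of 0.06 with compound C, 0.41 with versipelostatin, 0.29 with phenformin and 0.35 with 2DG alone.

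Known AMPK substrates were kept for 13 of 16 listed genes. In 2DG, 1 was higher and 2 lower with compound C, 0 and 2 with versipelostatin, and 1 and 2 with phenformin, at medians of 0.10, −0.29 and −0.37. The shares of all kept genes were 8.33% higher and 25.4% lower, 4.09% and 20.0%, and 4.84% and 21.8%. FNIP1 and FLCN, partners that act in lysosomal nutrient sensing, had the largest ranges, followed by EEF2K, the kinase that inhibits translation elongation factor eEF2. On its brightest probe set EEF2K was lower, at −1.65 under compound C, −0.33 under versipelostatin and −0.63 under phenformin. Its second kept probe set was not, at 0.02, 0.40 and 0.06. FNIP1 differed by −0.69, −3.95 and −1.90 on its brightest probe set and by 3.31, 3.55 and 1.41 on another, and FLCN by 1.09, 0.89 and 1.77 on the brightest and −1.61, −2.44 and −1.96 on another. No direction can be given for either gene, though both enter the counts on their brightest probe sets.

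The SIK substrates and CREB itself were kept for 5 of 7 genes, with 1 lower by 2-fold in each comparison in 2DG (25.4%, 20.0% and 21.8% of all kept genes) and medians of −0.51 under compound C, −0.31 under versipelostatin and −0.21 under phenformin. The lower gene was HDAC4, a class IIa histone deacetylase, which was kept only through 2DG alone (6.07) and compound C alone (6.64) and was not above background on the 3 arrays with a compound, a difference of −2.84, −2.84 and −2.79 or lower. CRTC2, a CREB coactivator, was within 0.42 of 2DG alone. CREB1 differed by −0.94 under compound C, 0.10 under versipelostatin and 0.88 under phenformin on its brightest probe set. Its other kept probe sets disagreed, with −0.57, −2.75 and −2.05 on 1 and −1.06, 0.24 and 1.34 on another, so no direction can be given for versipelostatin or phenformin.

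Of the genes known as CREB targets, 4 of 8 listed were kept and PER1 was not analysed here. Higher by 2-fold in 2DG were 3 under compound C, 2 under versipelostatin and 2 under phenformin (8.33%, 4.09% and 4.84% of all kept genes), and none was lower. FOS was kept only through its value in 2DG plus compound C and NR4A2 only through compound C alone, so these counts are descriptions. FOS, an immediate early transcription factor, was not above background in 2DG alone and read 10.04 in 2DG plus compound C, 5.70 in 2DG plus versipelostatin and 4.38 in 2DG plus phenformin, or at least 6.91, 2.57 and 1.26 higher. DUSP1, a phosphatase of MAP kinases, was higher by 1.48, 2.59 and 3.16. NR4A2, an orphan nuclear receptor, was 1.78 higher with compound C and not above background with versipelostatin or phenformin. Compound C without 2DG had DUSP1 2.45 and NR4A2 2.74 above the control. FOS was highest with compound C, then versipelostatin, then phenformin, and DUSP1 had the reverse order. SIK1 had no clear order: 208078_s_at gave 3.99, 3.97 and 3.54, and 232470_at gave 0.76, 1.07 and 1.21.

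**Figure D3:**
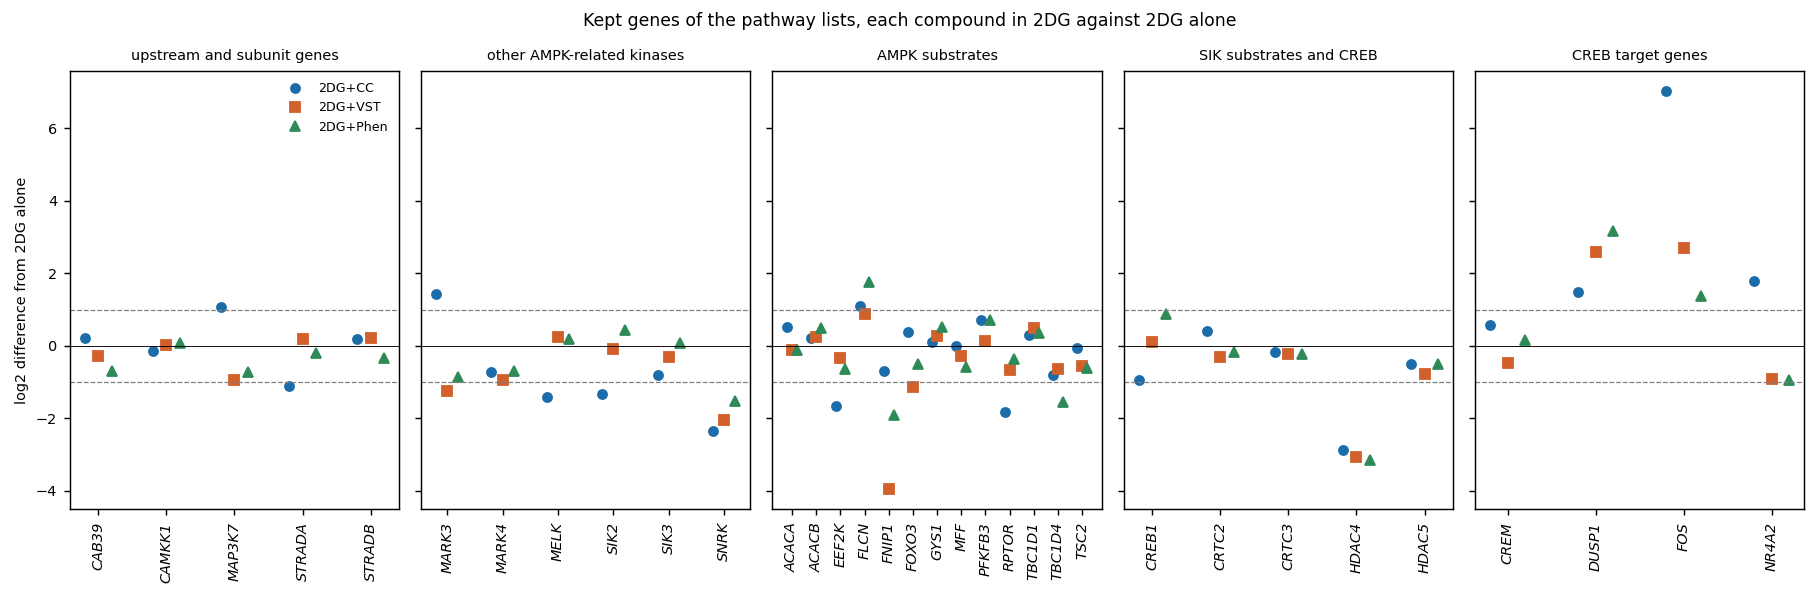
Log2 difference from 2DG alone for the kept genes of the 5 lists, one mark for each gene and compound: 2DG plus compound C (circle), 2DG plus versipelostatin (square) and 2DG plus phenformin (triangle). FOS, HDAC4 and NR4A2 are drawn at their differences as deposited, which for FOS with compound C is above the bound of 6.91, and SNRK lies below −1 with every compound.

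For the 6 kept members with a range of at least 1 over the 8 arrays, the 3 kept genes with the highest Pearson correlation were looked up among 8428. The 8 points are 1 array for each condition, 4 of them with 2DG, so these correlations are descriptions. Nearest to SIK1 were ITPRIP (r = 0.99), PMAIP1 (0.98), which encodes the apoptosis protein NOXA, and RASAL2 (0.98), and 102 genes (1.21%) had r above 0.9. PMAIP1 read 11.12, 10.98 and 11.39 in 2DG plus compound C, versipelostatin and phenformin, against 9.04 in 2DG alone. PRKAA1 on its brightest probe set was nearest to JAZF1 (0.99), CPEB2 (0.99) and ZNF800 (0.98), with 123 genes (1.46%) above 0.9. Between them, SIK1 and PRKAA1 had r = 0.94.

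PRKAB2 had few genes with a like pattern: ABITRAM (0.97), RTCA (0.96) and ZNF354A (0.94) came first and 15 genes (0.18%) were above 0.9. RTCA, an RNA cyclase, read 10.04 with compound C alone and 9.49 with versipelostatin alone, against 8.86 in the control. STK11 on 231017_at was nearest to CREBZF (0.99), ANKRD16 (0.99) and LPCAT3 (0.99), with 213 genes (2.53%) above 0.9. PRKAG2 was nearest to B4GALT5, ZNF644 and G3BP2 (0.95 each) with 29 genes above 0.9, and CAMKK2 to ZSCAN9 (0.98), METRNL (0.97) and CAMTA2 (0.97) with 19.

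**Figure D4:**
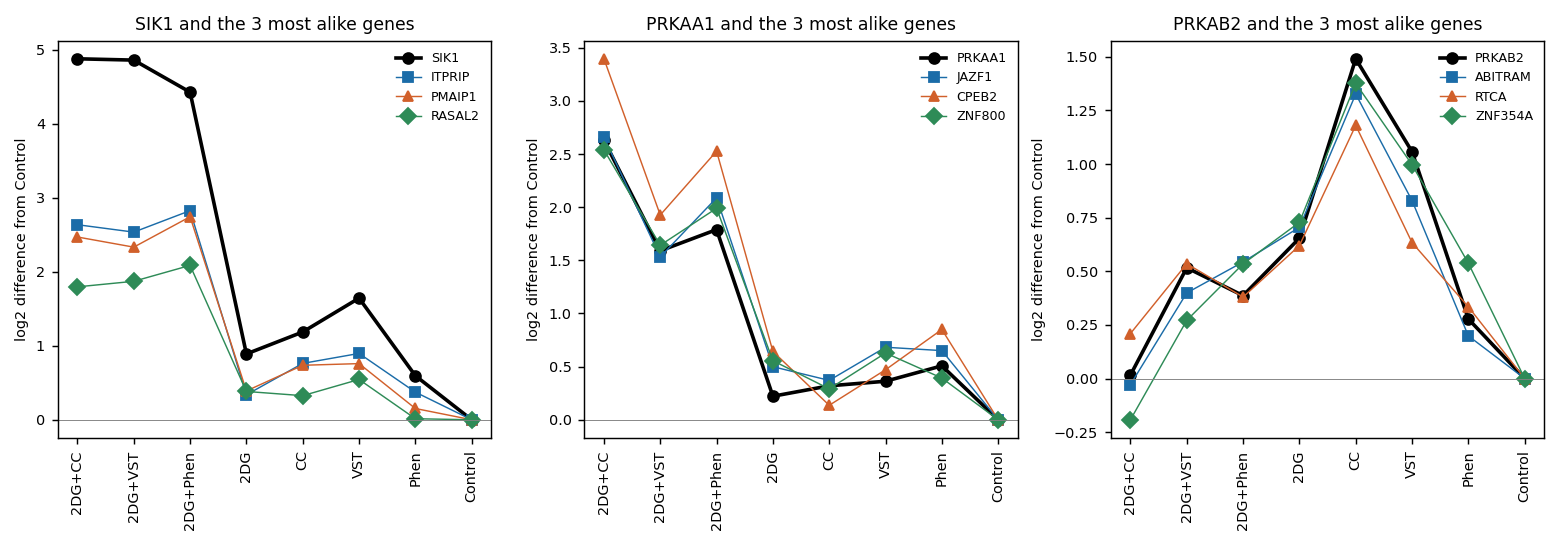
Log2 difference from the control (vertical axis) on the 8 arrays (horizontal axis) for SIK1, PRKAA1 and PRKAB2, each with the 3 kept genes most like it over the arrays. The SIK1 and PRKAA1 groups are high on the 3 arrays with 2DG and a compound, and the PRKAB2 group is highest with compound C alone.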

How the data were processed

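The deposited values are log2 signals of 8 arrays of HT1080 cells, 1 for each condition, which the authors made with RMA (background correction, normalization between arrays and summary of each probe set). The software that ran it is not given in the sources used here. Labelled cRNA came from 100 ng of total RNA. No step was added to the deposited log2 values. Of 54675 probe sets, 62 controls were left out, 41091 of the rest carried 1 gene symbol in the platform's annotation, 1801 several and 11721 none. Kept probe sets had a log2 value of 6 or more on at least 1 array, and the probe set with the highest mean stood for a gene. Differences of 2-fold or more were counted, with no test, because there are no replicates. The number of arrays limits the precision.

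Named were all 10 members, up to 3 kept genes of each list with the largest range, and the 3 kept genes most correlated with each kept member whose range was at least 1. SIK2 and the cell type markers shown were named after their values were seen. The members and lists were chosen with earlier results of these data known. Promoters were matched by symbol to RefSeq, and all 10 members matched. Alternatives were folds of 1.5 and 3, limits of 5 and 7 and none, centring, quantile normalization, scaling on 24 poly-A controls, other probe sets or their median, dropping probe sets with an _s_at or _x_at suffix, which can match more than 1 transcript, and the compound alone as comparison. The 2-fold counting and the quantile normalization were tested on simulated data made from the control array. The other calculations were not tested in this way. Scripts ran in Python 3.11.15 with pandas 2.3.3, numpy 2.4.6 and matplotlib 3.10.9.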

Additional observations from a re-analysis of the deposited data

Results flagged for a closer look

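PRKAB2 and STK11 had compound C differences that ran in opposite directions with and without 2DG, each by 1.5-fold or more in the values as deposited. PRKAB2 differed by −0.64 for compound C in 2DG and by 1.49 for compound C in normal growth. Read the other way, 2DG gave −1.47 in cells with compound C and 0.65 in cells without it. STK11 on 231017_at differed by −1.41 for compound C in 2DG and by 0.59 for compound C in normal growth. After centring or quantile normalization the directions stayed opposite, but PRKAB2 in 2DG was at −0.42 and −0.34 and STK11 in normal growth at 0.50 and 0.52, under 1.5-fold. The other STK11 probe sets did not share the pattern: 41657_at gave −0.15 in 2DG and −0.21 in normal growth, and 204292_x_at gave 0.37 and −0.11. On 214474_at, PRKAB2 gave −0.28 in 2DG and 1.64 in normal growth, and on 1558027_s_at −0.62 and 1.51. With 1 array for each condition, neither difference between the settings was tested.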

How the results depend on the processing

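No paired analysis was possible because each condition has 1 array and the labels give no replicate numbers. With 3, 3 and 3 members past 2-fold in 2DG (compound C, versipelostatin, phenformin) and 0, 2, 2 and 0 in 2DG, compound C, versipelostatin and phenformin against the control, a limit of 5, 7 or none and centring changed no count. In the same order there were 6, 6, 3, 2, 4, 3 and 2 at 1.5-fold and 2, 1, 2, 0, 0, 1 and 0 at 3-fold. Quantile normalization left 1 with compound C (SIK1 was at 0.996). Without probe sets that may match several transcripts the counts were 4, 3, 4, 0, 1, 1 and 0, on other probe sets for some members. With compound C in 2DG, PRKAG2 (−1.36) and CAMKK2 (−1.69) entered. SIK1 was not counted in this setting, because its other probe set (232470_at) never reached 6. On 232470_at, SIK1 was at 0.76, 1.07 and 1.21 in 2DG with compound C, versipelostatin and phenformin.

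Scaling on the poly-A controls put 9 members past 2-fold with compound C and 5 with versipelostatin in 2DG. On the brightest probe sets this scaling left SIK1 higher by 3.18, 3.50 and 3.24, PRKAA1 higher by 1.60, 0.90 and 1.27, and STK11 lower, at −2.22, −1.92 and −2.07. It moved the median of all kept genes to −1.04, −0.65 and −0.56 in 2DG with the compounds, and the list medians for compound C in 2DG to −0.63 (upstream and subunit genes), −1.88 (related kinases), −0.71 (substrates), −1.32 (SIK substrates and CREB) and 0.82 (CREB targets, 1.63 as deposited).

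Other probe sets reversed 4 sets of values: PRKAA1 to −0.31, −0.56 and −0.30 on 225984_at and −1.64, −0.93 and −0.77 on 225985_at in 2DG (the first from a value not above background, −1.10 or lower as a bound), STK11 to 0.37, 0.20 and 0.081, and SIK1 to −0.36 and −0.12 with compound C and versipelostatin alone. The cause was not tested.

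Of all kept probe sets, 34.0%, 25.3% and 27.5% were past 2-fold in 2DG with the compounds and 5.72%, 7.17%, 6.22% and 5.84% in 2DG, compound C, versipelostatin and phenformin. These shares were 54.0%, 45.0%, 47.4%, 19.6%, 22.8%, 21.5% and 21.8% at 1.5-fold, 18.0%, 11.7%, 13.0%, 1.21%, 1.65%, 1.30% and 1.06% at 3-fold, and 14.3%, 10.7%, 11.6%, 2.51%, 3.37%, 2.73% and 2.54% with no limit. Scaled on the poly-A controls they were 51.4% with compound C in 2DG, 9.00% with 2DG and 9.15% with phenformin. The higher ones made up 32.4%, 27.5% and 26.7% of those past 2-fold in 2DG with the compounds, 44.3%, 43.8% and 44.6% after centring, and 7.20%, 10.2% and 14.5% after poly-A scaling.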
